A study of Mus musculus with 6 samples.

Results

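The genes described here are the protein-coding genes of the cytosolic ribosome, chosen by name: Rpsa and every protein-coding row whose symbol has the form of a large subunit (Rpl, Rplp) or small subunit (Rps) protein gene. The rule finds 85 of the 45777 genes in the table, 53 of the large and 32 of the small subunit. RNA came from the striatum, the forebrain nucleus that receives dopamine input, of 6-week-old offspring of the outbred mouse strain ICR. Their sires were 6-week-old ICR males given either 15 mg/kg methylphenidate or 10 mL/kg saline under the skin on 21 consecutive days, and then paired with females that had received no drug. Methylphenidate blocks the dopamine and noradrenaline transporters. The stated protocol gives the drug to the sires, and the treatment label of each offspring sample is read here as that of its sire. Each group has 3 offspring, labelled as 2 females and 1 male, and the sources used here do not give the numbers of sires and litters. The p-values therefore measure the spread between these animals, which may be siblings.

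The ribosome translates mRNA into protein. Its small subunit reads the mRNA, its large subunit joins the amino acids, and most of its proteins are needed in equal numbers, the acidic stalk proteins being an exception with more than 1 copy of each per ribosome. Mammalian ribosomal protein genes are among the most strongly expressed genes of any tissue, and their mRNAs begin with a run of pyrimidines (the 5′TOP motif) through which mTOR signalling controls their translation as a group. These mRNAs have also been copied back into the genome many times, which left many processed pseudogenes, most of them intronless and very close in sequence to the parent mRNA. Reads from a ribosomal protein mRNA can match such a copy as well as the gene itself. The sources used here do not say how such reads were assigned.

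Levels are CPM, the counts of a gene scaled to a common library depth by the TMM method. A library is called by its group and the number in its column, which is tied to a group and not to a labelled animal. The columns are marked as control or father, and father was read as the methylphenidate-sired group, an inference from the series title. The saline-sired libraries are 3, 4 and 5 and the methylphenidate-sired ones 2, 4 and 6, and values are given in that order. Libraries held between 31360042 and 38844724 counts. Fold changes are on the log2 scale, methylphenidate-sired minus saline-sired, from edgeR's quasi-likelihood test with Benjamini-Hochberg adjustment over all 17874 genes tested. Markers of medium spiny neurons, the main striatal cell type, summed to between 10625 and 13443 CPM per library, with all 14 of them tested. Markers of tissues around the striatum were uneven. Those of the choroid plexus, which lies in the adjoining ventricle, summed over 13 genes to 2157, 387 and 34.6 CPM in the saline-sired against 39.7, 92.6 and 60.5 CPM in the methylphenidate-sired offspring, with 12 of 12 tested below 0 (median log2 fold change -3.02). Slc4a5 was at 0 in methylphenidate-sired libraries 4 and 6.

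Sequence copies come first, because they set how far a single row can be read. Transcripts of the genes were searched against the GENCODE vM21 transcripts of mouse build GRCm38 (mm10). At 95% identity or more over at least 200 nucleotides, 73 of the 85 genes had at least 1 copy with a row of its own in the table. There were 445 such rows, 431 of them called pseudogenes in the table, and 416 had at least 1 count. Rpl7a had the most, 30. Over the 81 genes that passed the filter on low counts, the median share of counts on copies (copies divided by gene plus copies) was 2.82%. It was under 5% for 53 genes and over 10% for 17. For 8 genes this share differed by 10 percentage points or more between libraries: Rpl21, Rpl26, Rpl30, Rpl35a, Rps2, Rps3a1, Rps19 and Rps26. The 10-point limit was chosen after the values were seen.

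Within a short stretch, these genes often differ from a copy at a single base. Whole alignments can hold more differences. The Rps2 copy Rps2-ps13 has 7 mismatches over 882 aligned nucleotides, and the Rpl35a copy Gm10243 has 1 over 333. Positions below are counted from 1 at the A of the start codon of the gene, and in a token such as G156A the gene has the first base and the copy the last. The windows are shown because they hold a base at which the copies with most of the copy counts differ from the gene. Each runs 5′ to 3′ along the mRNA in lower case, and capitals mark the bases at which gene and copy differ. The Rpl35a pair lies in coding exon sequence of Rpl35a (exon 3, chr16:33057504-33057542, plus strand) and in its copy Gm10243 (chr6:48523643-48523681, plus strand).
Rpl35a: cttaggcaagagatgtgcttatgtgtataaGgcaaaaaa
Gm10243: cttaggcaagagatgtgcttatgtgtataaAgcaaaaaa
The Rpl30 pair lies in exon 2 of Rpl30 (chr15:34442676-34442736, minus strand) and in Gm12191 (chr11:49678932-49678992, minus strand).
Rpl30: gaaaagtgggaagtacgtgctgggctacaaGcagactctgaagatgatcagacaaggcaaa
Gm12191: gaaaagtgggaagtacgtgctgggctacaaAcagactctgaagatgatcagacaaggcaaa
The Rpl26 pair lies in exon 3 of Rpl26 (chr11:68903179-68903217, plus strand) and in Gm15772 (chr5:3236599-3236637, plus strand).
Rpl26: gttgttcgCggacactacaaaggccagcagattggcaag
Gm15772: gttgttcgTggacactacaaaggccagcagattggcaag
The Rps3a1 pair lies in exon 4 of Rps3a1 (chr3:86139040-86139099, minus strand) and in Rps3a2 (chr14:88123246-88123305, minus strand).
Rps3a1: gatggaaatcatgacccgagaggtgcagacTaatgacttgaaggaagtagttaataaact
Rps3a2: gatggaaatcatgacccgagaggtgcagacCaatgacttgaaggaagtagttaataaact
The Rps2 pair lies in exon 1 of Rps2 (chr17:24720305-24720365, plus strand) and in Rps2-ps13 (chrX:52898617-52898677, plus strand).
Rps2: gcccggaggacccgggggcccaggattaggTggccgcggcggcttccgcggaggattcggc
Rps2-ps13: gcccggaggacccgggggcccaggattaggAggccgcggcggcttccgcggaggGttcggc

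Rpl35a encodes a large subunit protein that is among those mutated in Diamond-Blackfan anaemia. All 12 of its copies carry G156A, and Gm10243 matches the gene at every other of 333 aligned bases (99.7% identity). Copies held 70.0%, 39.7% and 40.3% of the summed counts in saline-sired against 74.0%, 73.0% and 71.7% in methylphenidate-sired offspring. Saline-sired library 3 therefore stood with the methylphenidate-sired libraries and apart from the other 2 of its own group. The counts were spread over several copies, with Gm10243, Rpl35a-ps3, Rpl35a-ps6 and Rpl35a-ps2 at 1973, 1911, 1868 and 1743 counts over all libraries.

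The deposited row of Rpl35a alone was at 28.1, 54.7 and 48.1 CPM in saline-sired against 18.2, 19.2 and 20.7 CPM in methylphenidate-sired offspring. The groups did not overlap, and the row had the smallest p among the ribosomal protein genes, with -1.17 on the log2 scale (SE 0.22, edgeR adjusted p = 0.343, with 3 libraries a group). It passed the test with DESeq2 (adjusted p = 1.22e-05) and with edgeR when saline-sired library 3 was left out (adjusted p = 0.0208, beside 0.022% of all genes called lower), but not when any other library was left out (adjusted p = 0.139 to 0.818). With the counts of its copies added, Rpl35a was at 93.5, 90.7 and 80.5 CPM against 70.1, 70.8 and 73.2 CPM. The groups still did not overlap, and the log2 fold change was -0.31 (SE 0.07, edgeR adjusted p = 0.395, DESeq2 adjusted p = 0.0400). The highest library exceeded the lowest by 3.00 times in the deposited row and by 1.33 times in the sum.

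Rpl30 encodes a large subunit protein at the contact between the subunits, and its difference between the groups had another sign once its copies were added. Of its 10 copies, 9 carry G96A, and those 9 held 25.2%, 25.4% and 24.4% of the summed counts in saline-sired but 3.86%, 2.93% and 3.27% in methylphenidate-sired offspring. Among the 8 genes, the share on copies separated the groups without overlap in Rpl30, where it was lower in methylphenidate-sired offspring, and in Rpl35a, where it was higher. Outside the 8, smaller shares separated too. Rps16 (5.35%, 5.58% and 6.59% against 6.65%, 6.91% and 7.12%) and Rpl23 (0.95%, 0.60% and 1.10% against 1.48%, 1.62% and 1.25%) were higher. Rpl37a (0.18%, 0.12% and 0.18% against 0%, 0.09% and 0.04%) was lower. How many genes with copies separate in this way was not counted. Gm12191 fell from 564, 424 and 333 counts to 86, 61 and 72 (edgeR adjusted p = 0.00356), Rpl30-ps9 from 179, 143 and 100 to 4, 3 and 2 (edgeR adjusted p = 0.00287), and Rpl30-ps10 from 147, 123 and 87 to 7, 1 and 5 (edgeR adjusted p = 0.0266). These 3 copies are among the 4 genes of the whole table past the test.

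The Rpl30 row itself was at 68.4, 66.7 and 53.8 CPM in saline-sired against 78.0, 72.5 and 76.1 CPM in methylphenidate-sired offspring. It was the only one of the 81 genes with all methylphenidate-sired libraries above all saline-sired libraries, at 0.26 on the log2 scale (SE 0.09, edgeR adjusted p = 0.485). With copies added, Rpl30 was at 91.5, 89.5 and 71.4 CPM against 81.2, 74.8 and 78.7 CPM, the groups overlapped, and the log2 fold change was -0.11 (SE 0.10, edgeR adjusted p = 0.779). Where copies were taken only from symbols that name Rpl30, so that Gm12191 stayed apart, it was 0.09.

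**Figure D1:**
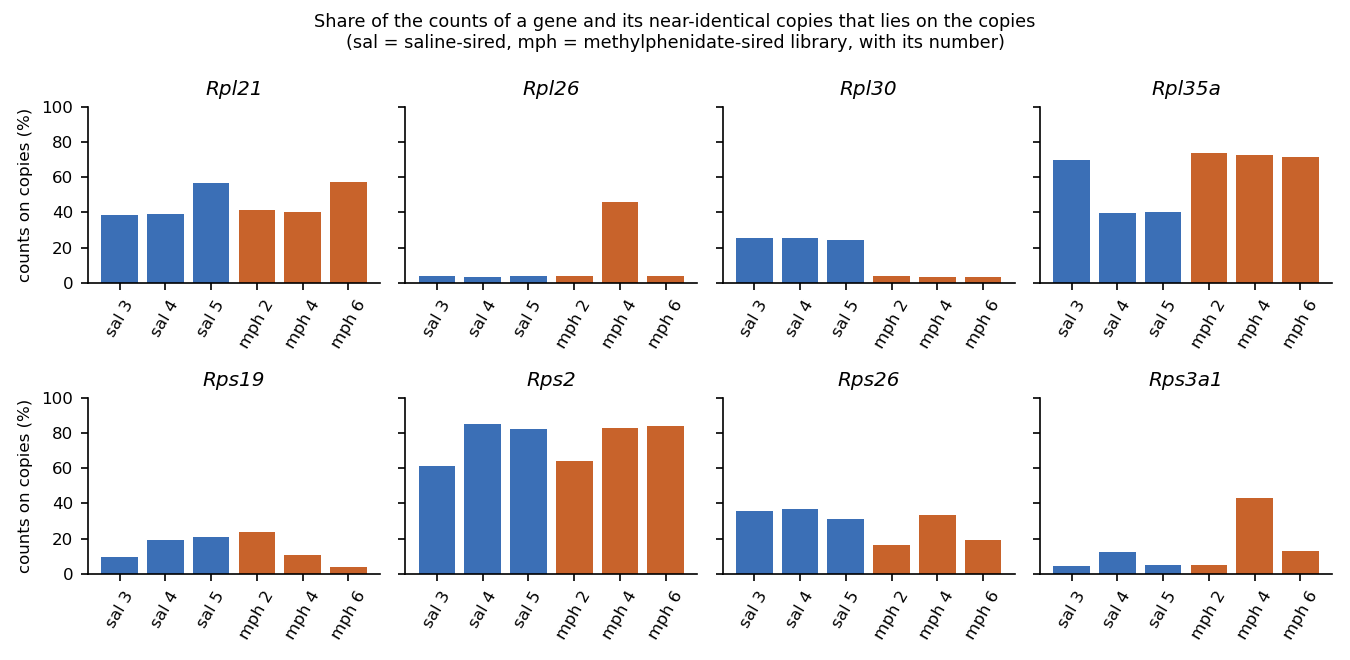
Percent of the counts of each of 8 ribosomal protein genes and its near-identical copies that lay on the copies (vertical axis), 1 bar per library, blue for saline-sired and orange for methylphenidate-sired. Rpl30 has 24.6 to 25.5% on copies in the saline-sired and 3.10 to 4.01% in the methylphenidate-sired libraries, while Rpl26 and Rps3a1 each have 1 library, methylphenidate-sired 4, far above the others. The Rpl21 bars include the gene BC004004, of which the match covers 4% and whose RefSeq span leaves out its Rpl21-like window.

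In Rpl26, whose protein lies near the mouth of the peptide exit tunnel, 1 library differed. The copies that carry C177T are 2 of 7 but hold 97.1% of the copy counts. Copies held 45.8% of the counts in methylphenidate-sired library 4 and between 3.3% and 4.0% in the other 5, and most of it lay on Gm15772 (chromosome 5), with 1897 counts in that library and between 103 and 174 elsewhere. The Rpl26 row was at 135.0, 135.5 and 120.3 CPM in saline-sired against 111.5, 71.7 and 112.8 CPM in methylphenidate-sired offspring, -0.40 on the log2 scale (SE 0.16, edgeR adjusted p = 0.502). With copies added, the same library was at 132.3 CPM, inside the saline-sired range, and the log2 fold change was -0.15 (SE 0.07, edgeR adjusted p = 0.590).

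Rps3a1, a small subunit protein near the exit of the mRNA, differed in the same library. All 6 of its copies carry T534C. Copies held 42.8% of the counts in methylphenidate-sired library 4, 12.1% in saline-sired library 4, 12.9% in methylphenidate-sired library 6, and between 4.4% and 5.1% in the remaining 3. Rps3a2 had 1128 counts and Rps3a3 869 counts in methylphenidate-sired library 4, against 185 to 608 and 8 to 44 in the other libraries. Adding the copies moved the log2 fold change from -0.33 (SE 0.17) to -0.11 (SE 0.06), with edgeR adjusted p = 0.613 and 0.642.

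Rps2, which sits where mRNA enters the small subunit, had most of its counts on copies in every library: 61.4%, 85.5% and 82.5% in saline-sired against 64.0%, 82.9% and 84.3% in methylphenidate-sired offspring. T60A is carried by all 21 copies that cover that base, and the further capital in the window of Rps2-ps13 marks A84G. Rps2-ps13 alone had 1464, 8613 and 6847 counts in saline-sired against 3834, 7152 and 7375 counts in methylphenidate-sired offspring. The Rps2 row was highest at 156.6 CPM in saline-sired library 3, followed by methylphenidate-sired library 2 at 120.9 CPM, with the other 4 libraries between 64.1 and 74.9 CPM, so the 2 high libraries came from different groups. The sum with copies ran from 335.7 to 468.0 CPM, a span of 1.39 times where the row alone spanned 2.44 times.

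The other 3 genes of uneven share had no common pattern. Rps26 copies, chiefly Rps26-ps1, held 36.0%, 36.6% and 31.3% in saline-sired against 16.5%, 33.6% and 19.0% in methylphenidate-sired offspring, and adding them moved the log2 fold change from 0.09 (SE 0.07) to -0.13 (SE 0.08). Rps19 copies ran from 3.6% in methylphenidate-sired library 6 to 23.7% in methylphenidate-sired library 2, where Rps19-ps6 had 9 and 486 counts. Rpl21 copies held 57.0% in 1 saline-sired (5) and 57.5% in 1 methylphenidate-sired library (6), and 38.5% to 41.3% in the other 4. The Rpl21 sum includes BC004004, a protein-coding gene of which the Rpl21 match covers under 50%, with 8303 counts over all libraries. The RefSeq span of BC004004 (chr17:29268788-29302888) leaves out its Rpl21-like window (chr17:29308443-29308503). Whether its counts are Rpl21 reads was not tested. The other copies held 18.2%, 19.0% and 35.9% of the same sum in saline-sired against 19.3%, 17.8% and 36.0% in methylphenidate-sired offspring.

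A high share on copies was not by itself uneven. Copies held 88.2% to 90.2% of the counts of Rpl29 in all 6 libraries, chiefly on Gm13841 and Gm8210 (8913 and 8839 counts), 80.5% to 82.7% of Rpl34 and 68.9% to 71.0% of Rps18, whose copy Gm10260 alone had 9885 counts. The share was 35.6% to 38.2% for Rpl3, with 18668 counts on Rpl3-ps1, and 18.5% to 19.8% for Rps7. The Rps6 copy LOC105244208, called protein-coding in the table and on chromosome 2, matched Rps6 without a difference over 750 aligned bases and held 3337 counts. In none of these 6 genes did the shares separate the groups. The log2 fold change of Rpl34 was -0.21 in its row and -0.20 in the sum, and that of Rps18 was -0.10 and -0.14.

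**Figure D2:**
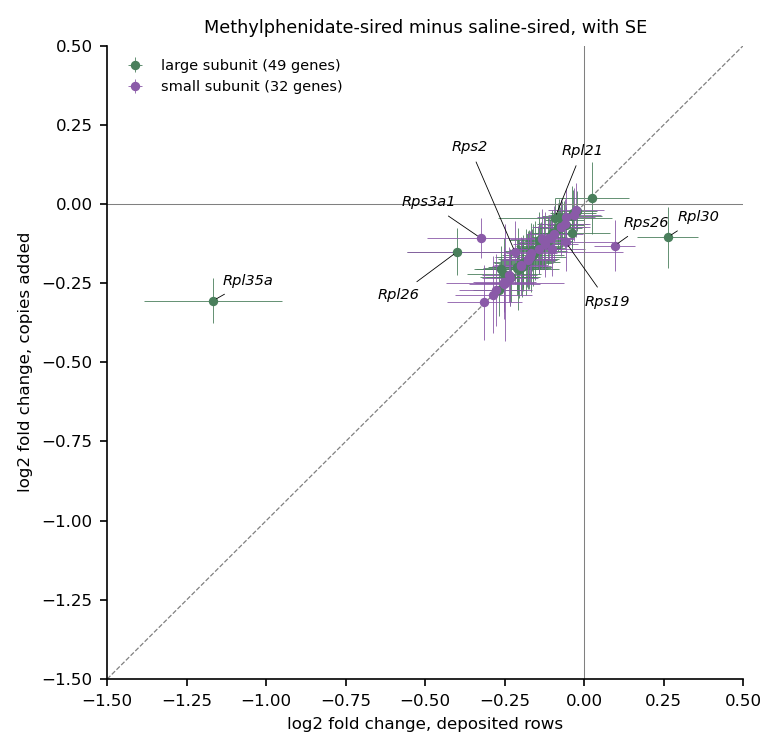
Log2 fold change of each of the 81 ribosomal protein genes in the deposited rows (horizontal axis) and with copies added (vertical axis), with SE as bars; green is large and purple small subunit, and the dashed line marks equality. Rpl35a moves from -1.17 to -0.31 and Rpl30 from 0.26 to -0.11, while most genes lie along the line.

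With the copies in view, the comparison of the groups asked whether ribosomal protein mRNAs of the offspring differed with the treatment of the sire. No single gene passed the test: 0 of 49 large and 0 of 32 small subunit genes in edgeR, deposited or with copies added. Of all genes tested, 0.0224% were called lower in the deposited rows (4 of 17874) and 0 higher. The Rpl30 copies Gm12191, Rpl30-ps9 and Rpl30-ps10 are among those 4, and they have no row of their own once copies are added. With copies added, 0 of 17685 were called in either direction. limma-voom also called 0 of the ribosomal protein genes. DESeq2 called 1, Rpl35a, where it called 1.2% of all genes in either direction and 0.264% lower (0.24% lower with copies added). At an unadjusted p under 0.05, edgeR had 18 lower and 1 higher. Almost all genes nonetheless had a fold change below 0: 47 of 49 large and 31 of 32 small subunit genes, where 53.0% of all genes tested were below 0. The median log2 fold change was -0.15 over the large and -0.17 over the small subunit, against -0.012 over all genes tested. With copies added, 48 of 49 and 32 of 32 were below 0, with medians of -0.14 and -0.15. Among 3207 other genes of similar or higher level, the median was 0.014 and 44.3% were below 0.

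At an unadjusted p under 0.05, 10 large and 8 small subunit genes were lower, together 22.2% of 81 where 3.95% of all genes were, and 1 was higher, Rpl30, where 5.07% of all genes were. In 14 large and 3 small subunit genes every methylphenidate-sired library was below every saline-sired library, 21.0% of 81 beside 7.01% of all genes. By subunit this was 28.6% of the large and 9.4% of the small, the small being near the share of all genes. The reverse held for Rpl30 alone, beside 7.84% of all genes. With copies added, 12 large (24.5%) and 3 small (9.4%) subunit genes had all methylphenidate-sired libraries below the others, beside 7.01% of all genes. In 0 they were above, beside 7.85%. These counts depend on single libraries. The number lower at an unadjusted p under 0.05 was 5, 6, 5, 6 and 7 without saline-sired 3, saline-sired 4, methylphenidate-sired 2, 4 and 6, and 50 without saline-sired 5, beside 2.98%, 3.21%, 3.37%, 2.4%, 2.6% and 5.34% of all genes.

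The libraries show where the shift lay. Centred on each gene's mean over the 6 libraries, the median log2 level of the 81 genes was 0.19, 0.12 and -0.091 in saline-sired against -0.11, -0.026 and -0.066 in methylphenidate-sired offspring. Saline-sired libraries 3 and 4 were high, and saline-sired library 5 lay within the methylphenidate-sired range. Of the 81 genes, 57 were highest in saline-sired library 3, 19 in saline-sired library 4 and 0 in saline-sired library 5, and 48 were lowest in methylphenidate-sired library 2. The summed level was 9939, 9540 and 8231 CPM against 8110, 8490 and 8306 CPM. Saline-sired libraries 3 and 4 are also the ones with the highest choroid plexus markers, in the same order, and the part of that tissue in the ribosomal difference was not tested. Markers of cortical excitatory neurons summed to 1176, 842 and 1428 CPM against 1617, 1625 and 1691 CPM, with 13 of 14 above 0 and lowest in the same pair of libraries. Medium spiny neuron markers were below 0 in 14 of 14, at a median of -0.20. They summed to 12717, 13443 and 13433 CPM against 11977, 11776.5 and 10625 CPM, without overlap, saline-sired library 5 included. In 11 of 14 every methylphenidate-sired library was below every saline-sired one, beside 7.01% of all genes tested. Oligodendrocyte markers were below 0 in 8 of 8, with sums from 7335 CPM in saline-sired library 5 to 13756 CPM in saline-sired library 4. The part of these cell types was not tested either. Ependymal markers were below 0 in 10 of 10, vessel and meningeal ones in 10 of 11, blood ones in 5 of 5 and microglial ones in 5 of 10, and the mitochondrially encoded genes were above 0 in 13 of 13. No gene of these lists passed the edgeR test. Without saline-sired library 3 the medians were -0.10 for the large and -0.094 for the small subunit. In bulk tissue, fewer cells of a type and less RNA per cell cannot be told apart.

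**Figure D3:**
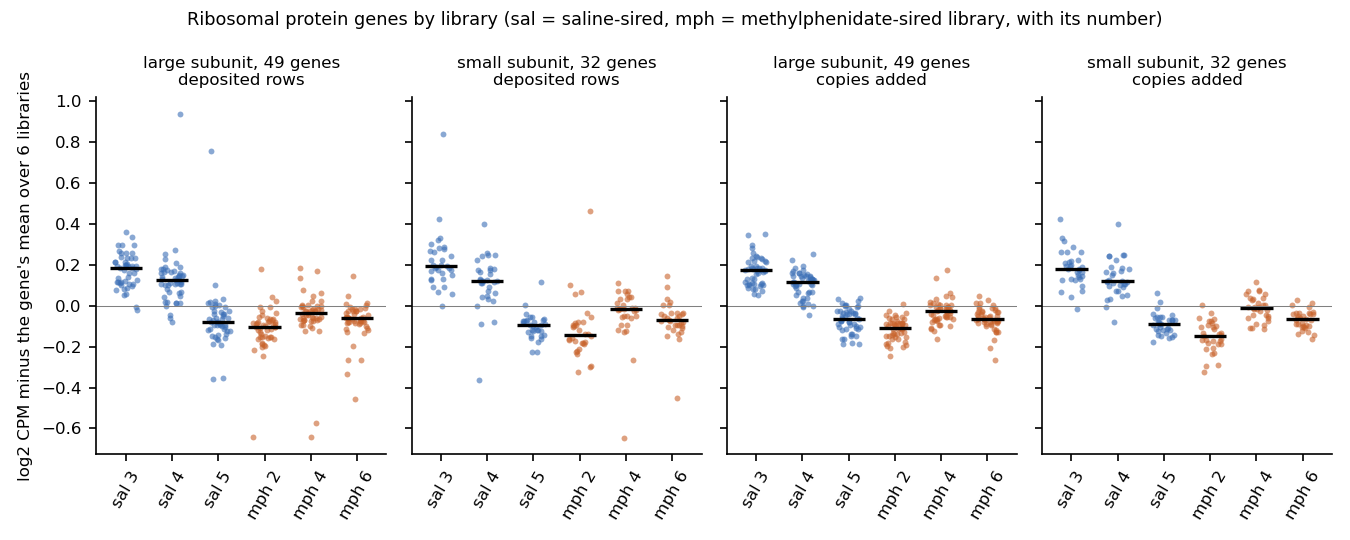
Log2 CPM of each gene minus its mean over the 6 libraries (vertical axis) by library, for 49 large and 32 small subunit genes in the deposited rows and with copies added; points are genes and black bars are medians. Saline-sired libraries 3 and 4 lie above 0 and the other 4, saline-sired 5 among them, below, and the outlying points of the deposited rows close in when copies are added.

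Of the large subunit genes, those of lowest p beside Rpl35a and Rpl30 were Rpl31, Rpl17 and Rpl39, which line or approach the exit tunnel of the growing chain, and, with copies added, Rpl24. Rpl31 was at 180.7, 172.8 and 153.8 CPM in saline-sired against 145.3, 147.8 and 127.9 CPM in methylphenidate-sired offspring, -0.27 on the log2 scale (SE 0.08, edgeR adjusted p = 0.457). No saline-sired library reached down to the highest methylphenidate-sired one. Copies held at most 1.07% of its counts, so the value hardly moved when they were added (-0.27, SE 0.08). Rpl39 has no copy past the limits and was at 41.3, 39.03 and 35.5 CPM against 31.9, 33.2 and 33.8 CPM, again without overlap (-0.23, SE 0.08, edgeR adjusted p = 0.470).

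Rpl17 was at 175.1, 173.4 and 152.5 CPM against 151.5, 139.5 and 126.6 CPM (-0.26, SE 0.08, edgeR adjusted p = 0.470), with saline-sired library 5 and methylphenidate-sired library 2 nearly level. Its copies held 10.8% and 10.9% in methylphenidate-sired libraries 4 and 6 and 4.6% to 5.9% in the other 4, and with them the log2 fold change was -0.21 (SE 0.07). Rpl24, at the subunit interface, was at 97.0, 104.7 and 92.9 CPM against 80.1, 87.4 and 90.01 CPM (-0.19, SE 0.07, edgeR adjusted p = 0.488). The remaining large subunit genes ran from -0.40 (Rpl26) to 0.024 (Rpl7l1).

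Of the small subunit genes, those of lowest p were Rps27a, Rps27, Rps9, Rps29 and Rps10, both in the deposited rows and with copies added. Rps27a, made as a fusion with ubiquitin, was at 132.3, 138.3 and 111.2 CPM in saline-sired against 99.4, 112.3 and 109.0 CPM in methylphenidate-sired offspring (-0.25, SE 0.09, edgeR adjusted p = 0.479). Rps9, a protein near the entry of the mRNA, was at 199.9, 233.9 and 162.0 CPM against 155.7, 163.2 and 160.1 CPM (-0.31, SE 0.12, edgeR adjusted p = 0.491). In both, saline-sired libraries 3 and 4 were high and saline-sired library 5 lay among the methylphenidate-sired libraries.

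Rps29 and Rps27, small zinc-binding proteins, were the ones of these 5 without overlap. Rps29, which has no copy past the limits, was at 139.9, 123.6 and 110.3 CPM against 100.9, 109.9 and 107.2 CPM (-0.23, SE 0.09, edgeR adjusted p = 0.491). Rps27 was at 67.6, 75.8 and 63.7 CPM against 53.9, 62.6 and 59.4 CPM (-0.24, SE 0.09, edgeR adjusted p = 0.489). Rps10 overlapped, at 98.5, 92.3 and 75.9 CPM against 70.2, 78.3 and 75.6 CPM (-0.25, SE 0.10, edgeR adjusted p = 0.502).

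Several ribosomal proteins have a second gene of similar name that encodes a paralog, and the ratio of the pair can be read within each library. Rpl22l1 was at 48.1%, 43.6% and 41.1% of the Rpl22 level in saline-sired against 46.1%, 41.5% and 41.3% in methylphenidate-sired offspring. Rpl22 was at 63.4, 64.0 and 59.9 CPM against 52.2, 58.3 and 59.2 CPM, and Rpl22l1 at 30.5, 27.9 and 24.6 CPM against 24.1, 24.2 and 24.4 CPM, so the groups did not overlap in either gene but did in their ratio (log2 difference -0.041, SE 0.08, exact two-sided permutation p = 0.7). Rpl36al stood at 58.8% to 68.7% of Rpl36a (39.1 to 48.3 CPM), with a log2 difference of 0.081 between the groups (SE 0.059). Rpl7l1 stood at 15.7% to 21.3% of Rpl7 (139.5 to 164.7 CPM), with a difference of 0.17 (SE 0.10). Both had an exact two-sided permutation p of 0.3. A p above the threshold does not show that the ratios were alike.

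Rps27l, the minor partner of Rps27, ran from 4.51 CPM in methylphenidate-sired library 2 to 7.42 CPM in saline-sired library 3, which is 7.54% to 10.98% of Rps27 over the libraries (log2 difference -0.00031, SE 0.17, exact permutation p = 1). With 3 libraries against 3 the exact test cannot go below 0.1, and over the 4 pairs every Benjamini-Hochberg value was 0.6 or more. These are ratios of CPM and not of levels per length. The paralogs known mainly from testis (Rpl10l, Rpl39l) and striated muscle (Rpl3l) were at or near 0. Rpl10l had 0 counts in all 6 libraries, which allows up to 3 counts in each. Rpl39l had 5 counts in 1 library of each group (saline-sired 3, methylphenidate-sired 2) and 0 elsewhere, Rpl3l had 0 to 14 and Rpl32l 1 to 10. Rpl32l matches Rpl32 at 96.04% identity over 404 nucleotides, past the limits for a copy. It was kept apart because it fits the naming rule. Rpl10l, Rpl39l, Rpl3l and Rpl32l, all of the large subunit, are the 4 genes that did not pass the filter on low counts. Their partners were strongly expressed: Rpl10 was at 170.9, 165.4 and 134.1 CPM against 133.9, 145.4 and 147.4 CPM, and Rpl3 at 223.3, 220.5 and 186.1 CPM against 195.6, 208.0 and 196.9 CPM.

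Levels of different genes were compared only per transcript length, as CPM per kilobase (median of 6 libraries, shortest transcript tied to the gene's RefSeq mRNA). In the deposited rows the highest of the large subunit were Rpl41, a very short basic peptide, at 367 CPM per kilobase, and Rplp1, a protein of the stalk that recruits elongation factors, at 357. The highest of the small subunit were Rps24 at 350 and Rps15 at 303. The transcripts tied to Rps24 run from 519 to 1613 nucleotides, so its rank rests on use of the shortest. Rplp1 was at 236.2, 211.7 and 167.5 CPM in saline-sired against 161.0, 179.7 and 176.2 CPM in methylphenidate-sired offspring, and Rps15 at 176.4, 163.7 and 137.5 CPM against 144.9, 154.1 and 148.6 CPM. In both, the groups overlapped and saline-sired library 3 was highest. Rpl41 was at 187.1, 168.4 and 160.0 CPM against 151.1, 161.1 and 153.9 CPM, and Rps24 at 206.6, 213.5 and 177.1 CPM against 177.0, 186.7 and 176.8 CPM.

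The lowest were Rpl7l1 at 9.69 and Rpl29 at 16.1 CPM per kilobase in the large, and Rps27l at 10.8 and Rps15a at 15.9 in the small subunit. Rpl29 rested on its copies: with them it was at 154 CPM per kilobase. Rps2 likewise went from 74.1 CPM per kilobase, the 26th of 32 small subunit genes, to 418, the highest. Rps15a has a level per length that rests on the one long transcript to which its RefSeq mRNA is tied here, and its row was at 79.7 to 96.2 CPM, near that of other small subunit genes. Over the genes that passed the filter, the median was 118 CPM per kilobase for the large and 130 for the small subunit in the deposited rows.

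**Figure D4:**
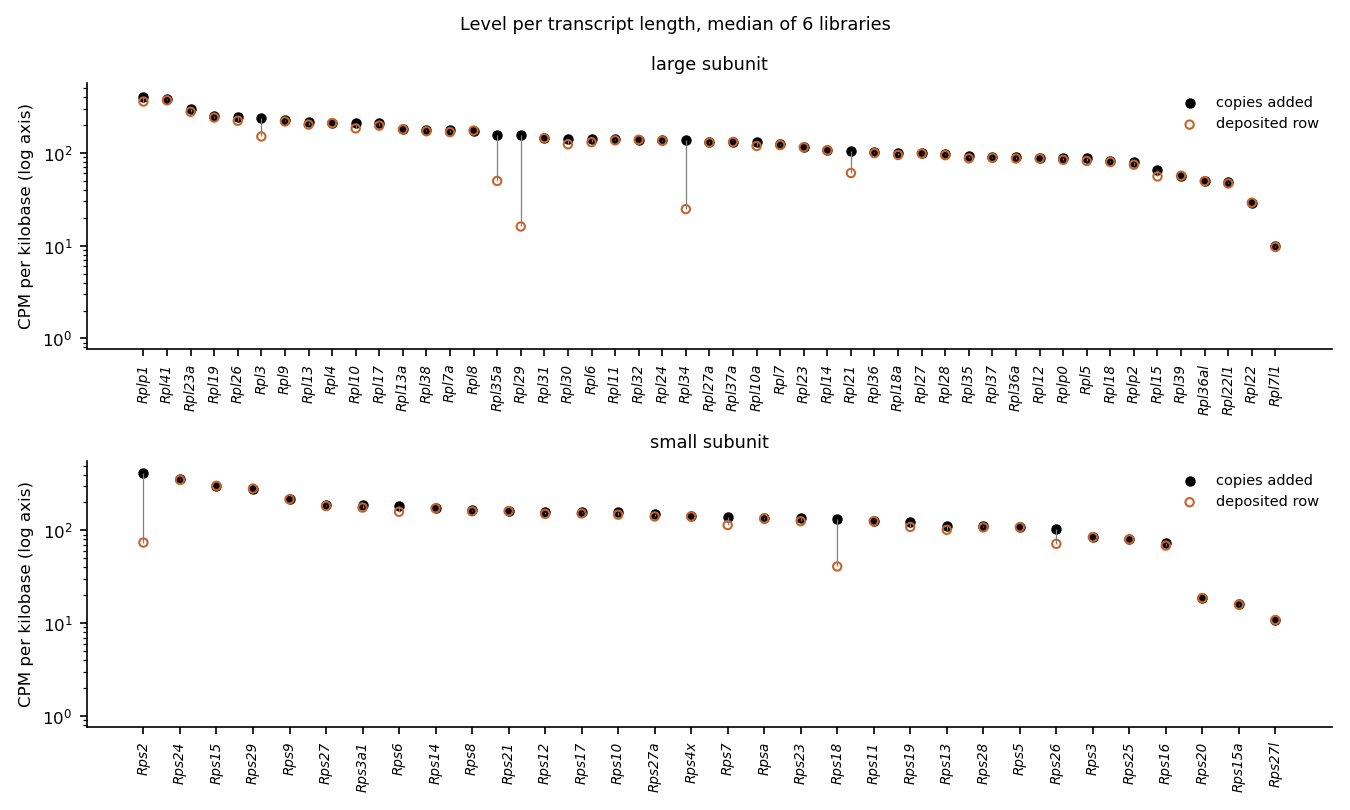
Level per transcript length (CPM per kilobase, log axis, median of 6 libraries) of 49 large and 32 small subunit genes in order of level with copies added; black points include copies and open orange points are the deposited rows alone. Rpl29, Rpl34, Rpl35a, Rps2 and Rps18 have the long vertical lines, their deposited rows lying far under the sum, and Rpl7l1 and Rps27l stay low in both.

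Other genes of the pathway were read from fixed lists, and in edgeR 0 genes of any list passed the test. Genes of the ribosome outside the naming rule were read one by one. Fau, which encodes a small subunit protein fused to a ubiquitin-like one, was at 106.3, 112.3 and 97.9 CPM against 93.5, 98.3 and 89.9 CPM (-0.17, SE 0.07, edgeR adjusted p = 0.517). Rack1, the scaffold on the small subunit, was at 132.2, 105.8 and 100.6 CPM against 104.6, 113.1 and 113.0 CPM (-0.034, SE 0.10), with the groups overlapping.

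Of 16 elongation factors and other 5′TOP mRNAs, 12 were below 0 with a median of -0.043 and 0 were past an unadjusted p of 0.05. Eef1g, a subunit of the factor that reloads eEF1A, had -0.17 (SE 0.09) and Pabpc1, the poly(A)-binding protein, 0.13 (SE 0.07). Of 28 nuclear-encoded subunits of oxidative phosphorylation, whose mRNAs are short and abundant as well, 26 were below 0 with a median of -0.10 and 4 were lower at an unadjusted p under 0.05, where 53.0% of all genes were below 0 and 3.95% were lower at that p. Among them Cox5b, of cytochrome c oxidase, had -0.30 (SE 0.09) and Atp5k, of ATP synthase, -0.25 (SE 0.09). Within the saline-sired group, the summed levels of both lists followed the same order as the ribosomal proteins, highest in library 3 and lowest in library 5.

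The genes that make and regulate ribosomes lay on both sides of 0. Of 28 ribosome biogenesis factors, 14 were below and 14 above 0 with a median of 0.0085. Wdr12, of large subunit assembly, had 0.20 (SE 0.08) and Ubtf, of ribosomal DNA transcription, -0.14 (SE 0.06). Of 14 genes that control ribosomal protein synthesis or 5′TOP translation, 6 were below 0 with a median of 0.04. Rps6kb2, a kinase of the S6 protein, had -0.26 (SE 0.09) and Larp1, which binds 5′TOP mRNAs, 0.14 (SE 0.05). Of 78 mitochondrial ribosomal proteins, 47 were below 0 with a median of -0.019, and Mrpl50 (0.22, SE 0.08) and Mrpl24 (-0.22, SE 0.08) had the lowest p.

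**Figure D5:**
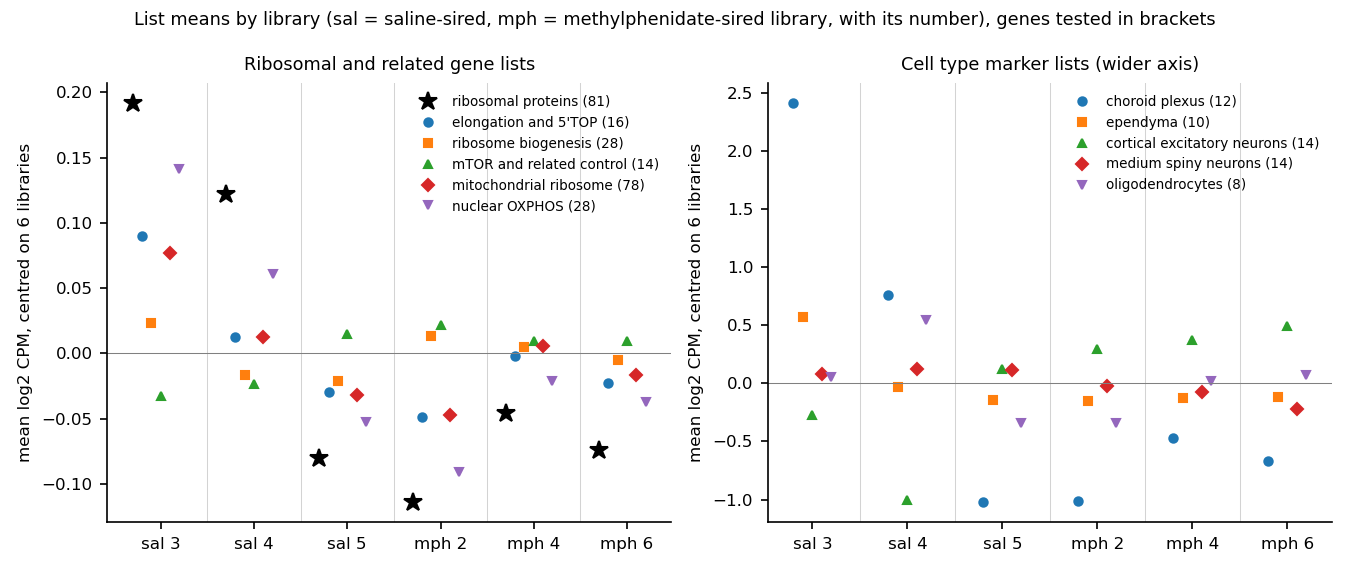
Mean log2 CPM of each gene list, centred on the 6 libraries (vertical axis), by library; the left panel has the ribosomal proteins and related lists and the right panel, on a wider axis, cell type markers. The ribosomal proteins and the oxidative phosphorylation list are highest in saline-sired library 3, then saline-sired library 4. So are the elongation and 5′TOP list, the mitochondrial ribosomal proteins, and the choroid plexus and ependymal markers.

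Start site sequences are shown as a description of these genes. A fold change below 0 was found in 78 of 81 of them, though none passed the edgeR test. A relation between the motifs and the fold changes was not tested. RefSeq windows of GRCm38.p6 from 250 bases before to 50 bases after the start were available for 65 of the 85 genes, 77 windows in all. CTTTC, a 5′TOP-like pyrimidine run searched on the strand of the gene from 20 bases before to 20 after the start, was in 24.7% of these windows and in 5.49% of 32851 windows of all genes. CCGGAAG, the core of ETS family sites searched on both strands of the whole window, was in 35.1% against 8.86%. TATAAA, within 40 bases before to 10 after the start, was in 2.60% against 2.51%. A CTTTC match can share its last base with a CCGGAAG match. A match is a description of the letters and not a bound site, and windows of 1 gene overlap. The examples run from 40 bases before to 10 bases from the start with the matched motifs in capitals: Rpl35a (chr16:33056442-33056491, plus strand), Rps27 (chr3:90213639-90213688, minus strand) and Rpl38 (chr11:114668540-114668589, plus strand).
Rpl35a: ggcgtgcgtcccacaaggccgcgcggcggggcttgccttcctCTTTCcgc
Rps27: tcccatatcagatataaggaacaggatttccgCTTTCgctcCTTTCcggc
Rpl38: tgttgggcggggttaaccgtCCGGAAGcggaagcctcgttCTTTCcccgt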

How the data were processed

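Striatal RNA of 6 offspring was measured by RNA-seq. Per the submitters' processing notes, bcl2fastq 2.20.0, Trimmomatic, HISAT2 2.1.0, StringTie 2.1.3b and the build mm10 were used. Their order and settings, the strandedness and the rule for multi-mapping reads are not stated there. The deposited table holds whole-number read counts per RefSeq gene, not normalized, with gene types. A further 12 columns of FPKM and TPM values were not used. Columns marked control and father were taken as the saline-sired and methylphenidate-sired groups, an inference from their names and the series title, and no label ties their numbers to an animal, so offspring sex could not enter the fit.

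Counts were tested with edgeR 4.0.16 (R 4.3.3): TMM scaling, filterByExpr, quasi-likelihood F test, Benjamini-Hochberg adjustment over all 17874 genes, threshold 0.05. SE is the fold change over the root of F. The fit was tested on simulated data with known changes. Copies were found with blastn 2.17.0 (at least 95% identity over 200 nucleotides, expectation limit 1e-20, GENCODE vM21), their counts were added to the gene in a second table, and the fit was repeated over 17685 genes. Sums for Rpl21 and Rplp2 include the long genes BC004004 and Wdr89.

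The genes and lists were chosen with earlier results of these data known. Genes named with values in every library are those of lowest p (5 per subunit and table) and of highest and lowest level per length (2 each per subunit), paralog pairs, genes under the filter, genes that change sign, and, chosen after their values were seen, those with uneven copy shares. Of each pathway list the 2 of lowest p are named. Alternatives were DESeq2 1.42.0, limma-voom 3.58.1, other scalings, no filter, other copy definitions and leaving out each library. Of these, sums limited to copies covered at least to 50% by the match, and DESeq2 and limma-voom on the sums, were chosen after seeing the data. 1 gene of a pathway list is not reported here.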

Additional observations from a re-analysis of the deposited data

How the results depend on the processing

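Both subunit medians stayed below 0 under all 12 alternatives run for each. In the deposited rows, other scalings, no filter, DESeq2, limma-voom and leaving out each library gave -0.22 to -0.10 for the large and -0.22 to -0.094 for the small subunit. With copies added, another scaling, other copy definitions, DESeq2, limma-voom and leaving out each library gave -0.19 to -0.092 and -0.21 to -0.097. The number of genes below 0 ran from 70 to 80 when each library was left out in turn. The number of all genes past the test was 173 with DESeq2 in place of 4, and 1 to 4 with a library left out. For the ribosomal protein genes it was 1 with DESeq2, in the deposited rows and with copies added, and 0 to 1 with a library left out. The number lower at an unadjusted p under 0.05 was 18, and 5 to 50 with a library left out. The median level per length was 120 CPM per kilobase, 136 with copies added and 114 with the longest transcript. No paired analysis was possible because the columns of both groups share only the number 4, which no label ties to an animal.

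Some of the named genes turned sign when a library was left out, with these ranges over the libraries left out: Rpl21 -0.25 to 0.042, Rpl29 -0.087 to 0.067, Rpl36al -0.11 to 0.031, Rpl7l1 -0.054 to 0.13, Rps15a -0.078 to 0.061, Rps19 -0.16 to 0.083 and Rps2 -0.53 to 0.26 (-0.22, SE 0.34, with no library left out). Leaving out saline-sired library 3 turned the sign in each of these except Rpl7l1. Rpl30 with copies taken by symbol was at 0.094. The cause was not tested. Of 384 pairs of a named gene and an alternative, 370 kept direction and side of the threshold. No named gene passed the main test, so few could change side, and some were picked by lowest p in these data. The count is therefore no measure of stability. The counting of reads shared between a gene and its copies limits each single row.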
